A study of Mus musculus with 36 samples.

Results

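Described here are 9 genes of the interleukin-1 family, chosen by name: the ligands Il1a, Il1b, Il18 and Il33, the receptor antagonist Il1rn, the soluble decoy Il18bp, the receptors Il1r1 and Il1rl1, and the decoy receptor Il1r2. All 9 were found among the 52636 genes counted in each library, by Ensembl identifier. They were followed across 12 genotype groups of RNA-seq libraries with 3 libraries each, 36 in all.

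The IL-1 family carries the first alarm of injured or infected tissue. IL-1α and IL-1β signal through the IL-1 receptor IL1R1, IL-18 through its own receptor, and IL-33 through ST2, the product of Il1rl1, which is known from mast cells and type 2 innate lymphoid cells. Natural inhibitors hold the ligands in check: IL-1RA, encoded by Il1rn, occupies IL1R1 without signalling, IL1R2 binds IL-1 without a signalling tail, IL-18BP traps IL-18 in solution, and Il1rl1 also encodes a soluble form of ST2 that traps IL-33. Counts per gene do not separate the soluble from the membrane form of ST2. IL-1β and IL-18 are made as inactive precursors that caspase-1 cleaves inside inflammasomes, whereas IL-1α is active as a precursor and IL-33 is stored in nuclei. In the gut, IL-18 is made constitutively by the epithelium, while IL-1β comes mainly from myeloid cells after stimulation. Transcript counts do not show cleavage or release.

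The series asked what caspase-8 does when its self-processing site (D387A) or its catalytic cysteine (C362A) is substituted and its partner cFLIP, encoded by Cflar, is lost. The D387A set held E18.5 mouse intestines of 6 genotypes: Mlkl KO controls, Casp8 D387A KI, D387A KI Cflar KO Mlkl KO, that genotype with Casp1 KO, and the Casp1 KO genotype with either Ifnar1 KO or Fadd KO. The C362A set held E18.5 intestines of 4 genotypes: its own Mlkl KO controls, Casp8 C362A KI Mlkl KO, that genotype with Casp1 KO, and C362A KI Cflar KO Mlkl KO. Untreated mouse embryonic fibroblasts (MEFs), primary connective tissue cells, were either Mlkl KO or D387A KI Cflar KO Mlkl KO. Every group but D387A KI carried the Mlkl deletion, which removes the effector of necroptosis, and the D387A KI label names no other allele, so that group differed from its controls at Mlkl as well. The alleles were germline, present in every cell of the embryo, and the Cflar deletions of both intestine sets were different alleles. Groups are named below by their alleles, as in D387A Cflar Mlkl intestine. Nothing in the labels says that libraries of a group came from separate litters, so p-values measure the spread between these libraries.

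Total counts were 17943524 to 27721024 reads in D387A set intestines, 21757868 to 31052238 in C362A set intestines and 20927014 to 32307629 in MEFs. Casp1 was at 0 to 0.212 CPM (counts scaled to library size) in the Casp1 KO intestines and at 42.6 to 124 in the other intestines, Fadd at 0.659 to 1.01 in the Fadd KO group and at 25.5 to 50.5 in the other intestines, and Ifnar1 at 33.2 to 37.9 in the Ifnar1 KO group and at 76.1 to 103 in the other intestines. Cflar and Mlkl kept reads in their knockouts, up to 59.4 and 62.6 CPM in intestines, so gene totals did not check those alleles. The summed RPKM of 8 enterocyte markers was 1297 or higher in every intestine and at most 0.236 in MEFs, where 7 fibroblast markers summed to 4073 or more. The third D387A Cflar Mlkl Casp1 intestine stood apart from its group in several members: Il1a, Il18bp and Il1rl1 were at 19.6, 11.7 and 3.47 RPKM there and at no more than 6.44, 2.66 and 0.752 RPKM in the other two libraries. The third C362A Cflar Mlkl intestine stood apart in Il1a, at 7.83 RPKM beside 1.35 and 1.67. Fold changes called with the first of these groups are therefore given without that library too wherever the call was lost or the value moved by over 1.5 times, as are calls gained without it.

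Il1a and Il1b are neighbours on chromosome 2 (GRCm38), both on the minus strand, at 129299610 to 129309972 and 129364570 to 129371139, with 54.6 kb between them. Il1rn lies on the plus strand of the same chromosome at 24336853 to 24351494. Il1r2 (40074079 to 40125231), Il1r1 (40225080 to 40317257) and Il1rl1 (40429570 to 40465415) form a cluster of 391 kb on the plus strand of chromosome 1, 18.2 to 18.6 Mb from Cflar. Il18 lies on chromosome 9 (50554827 to 50581840, plus strand), Il18bp on chromosome 7 (102014885 to 102018690, minus strand) and Il33 on chromosome 19 (29925114 to 29960718, plus strand).

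Il1b and Il1rn were both called higher in D387A Cflar Mlkl intestines and lower on Casp1 loss there. Il1a, next to Il1b, was not called in the first and was called higher in the other. For these genes the 250 bases before a RefSeq start site are shown, for Il1rn the most upstream of several. They are from RefSeq (GRCm38.p6), 5′ to 3′ on the strand of each gene, at chr2:129309973-129310222 (minus) for Il1a, chr2:129371140-129371389 (minus) for Il1b and chr2:24336610-24336859 (plus) for Il1rn. Capitals mark the TATA box letters TATAAA in Il1a and Il1b and a match to an NF-κB pattern in Il1rn, which is GGG and CC with any 5 bases between. GENCODE exons cover 0 bases of the Il1a and Il1b windows and 7 bases of the Il1rn window.

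Il1a: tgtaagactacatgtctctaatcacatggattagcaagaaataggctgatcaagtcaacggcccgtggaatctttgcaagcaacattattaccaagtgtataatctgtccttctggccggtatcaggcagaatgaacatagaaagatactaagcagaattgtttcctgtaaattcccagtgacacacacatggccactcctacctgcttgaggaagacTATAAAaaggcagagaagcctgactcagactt

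Il1b: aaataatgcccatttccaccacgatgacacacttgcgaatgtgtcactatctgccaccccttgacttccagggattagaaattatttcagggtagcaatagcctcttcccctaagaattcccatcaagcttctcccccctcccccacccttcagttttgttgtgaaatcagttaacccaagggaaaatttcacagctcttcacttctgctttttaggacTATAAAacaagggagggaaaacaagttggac

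Il1rn: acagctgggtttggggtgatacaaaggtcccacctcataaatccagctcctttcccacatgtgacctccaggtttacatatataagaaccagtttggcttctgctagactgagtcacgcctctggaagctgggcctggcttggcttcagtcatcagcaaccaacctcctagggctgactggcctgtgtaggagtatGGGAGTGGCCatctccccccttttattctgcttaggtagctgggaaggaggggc

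TATAAA lay 32 to 27 bases before the start of Il1a and 31 to 26 bases before that of Il1b. GGGAGTGGCC lay 54 to 45 bases before the upstream start of Il1rn. The windows of its downstream starts are not shown, and one of them held GGGTTTTTCC, 51 to 42 bases before its start. All 9 genes had a window, 14 windows in all since several had more than 1 start. Searched on both strands, TATAAA was in 5 of the 14 windows (4 genes), the NF-κB pattern in 3 (Il1rn and Il1r1), the STAT pattern TTCNNNGAA in 1 (Il1r2) and an interferon response pattern, GAAA repeated after any 2 bases, in 0. Of 32851 windows of the same length over all genes, 12.4% held TATAAA, 45.8% the NF-κB pattern, 7.02% TTCNNNGAA and 2.98% the interferon response pattern. These are matches of letters, which do not show binding.

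In the control Mlkl intestines, Il18 was the most abundant transcript per length, and in those of the D387A set Il1b had the lowest mean, just under that of Il1rn. RPKM, the read count scaled to library size and gene model length, was 42.8, 33.9 and 41 for Il18 in the D387A set controls. Il33 was at 5.9, 5.89 and 6.51, Il1a at 4.37, 3.73 and 4.41, and Il1r1 at 3.02, 3.45 and 3.12. Il18bp, Il1r2, Il1rl1 and Il1rn averaged 1.39, 0.923, 0.502 and 0.46 RPKM, and Il1b rested on 12, 18 and 6 reads, 0.446, 0.697 and 0.221 RPKM. The C362A set controls had Il18 highest as well, at 26.2, 39.6 and 39.5 RPKM, and Il1b at 1.98, 0.736 and 1.58 RPKM, a higher mean than those of Il1r2, Il1rl1 and Il1rn there.

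**Figure D1:**
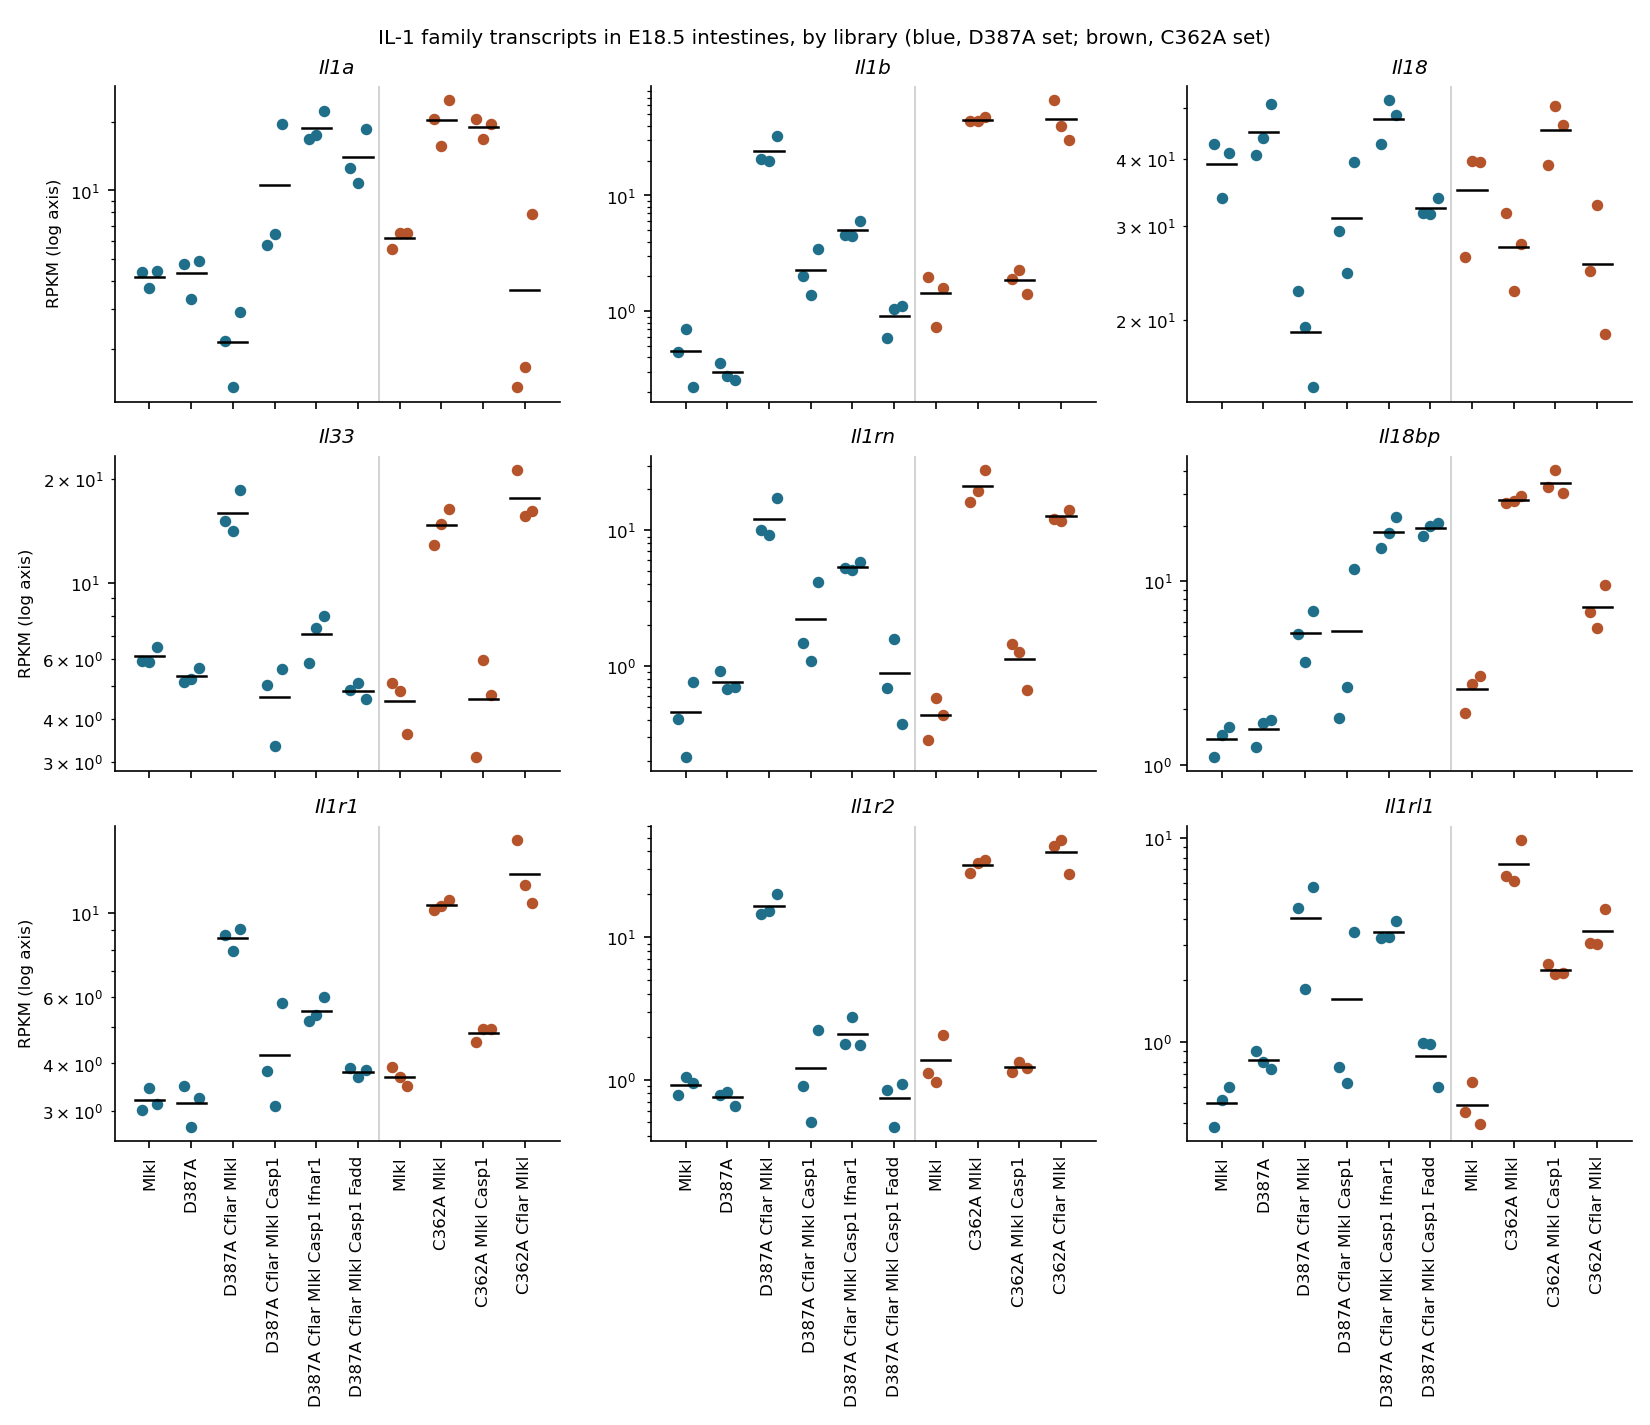
RPKM on a log axis for each of the 9 genes in every intestine library, with the genotypes of the D387A set in blue and of the C362A set in orange; points are libraries and bars are means of 3. Il1b, Il1rn, Il33, Il1r1 and Il1r2 peak in D387A Cflar Mlkl, C362A Mlkl and C362A Cflar Mlkl, whereas Il1a has its lowest means in the 2 groups that lack Cflar and keep Casp1.

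D387A alone left the family near the control levels. Il1b was at 0.361, 0.277 and 0.257 RPKM, Il18 at 40.7, 43.9 and 50.7, and Il1a at 4.75, 3.3 and 4.87, and each of these overlapped its controls. A gene was called where its log2 fold change exceeded 1 in size with an edgeR adjusted p under 0.05, and 0 of the 9 genes were called, beside 0.00545% of all genes tested. None of the 9 had an unadjusted p under 0.05, and limma-voom and DESeq2 also called 0. The libraries of Il1rl1, at 0.738 to 0.905 RPKM, and of Il33, at 5.15 to 5.63, did not overlap the controls (log2 fold changes 0.69 ± 0.55 and -0.19 ± 0.16, SE). The share of all genes separated in this way was not counted, so no result about these genes is drawn from it. Of the summed markers, those of epithelium (1867 to 1950 RPKM beside 1566 to 1772), enterocytes (40007 to 42059 beside 33740 to 38434), fibroblasts (602 to 714 beside 741 to 822) and pancreatic acinar cells (32.3 to 35.4 beside 35.9 to 71.9) did not overlap the controls either. Marker sums are given below in the same way, for each cell type list that did not overlap between the 2 genotypes compared.

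D387A Cflar Mlkl intestines, which differ from their Mlkl controls at both Casp8 and Cflar, had a rearranged family. They were not compared directly with D387A alone. By group means, Il1b went from the least abundant member (0.455 RPKM, beside 0.46 for Il1rn) to the most abundant (24.2, beside 19 for Il18). Single libraries did not all keep these ranks. The antagonist Il1rn and both decoys rose, and Il18 fell. Of the 9 genes, 7 were called higher in D387A Cflar Mlkl than in Mlkl intestines, where 9.4% of all genes were, and 1 was called lower, where 12.8% of all genes were. Their median log2 fold change was 1.92, beside -0.01 over all genes. Fewer cells of a type and less RNA per cell cannot be told apart in these whole-tissue libraries.

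Il1b, the inflammasome-dependent cytokine, was at 20.5, 19.6 and 32.5 RPKM in D387A Cflar Mlkl intestines. Every library lay far above the control high of 0.697 RPKM, a 53.1-fold difference (log2 fold change 5.73 ± 0.37 SE, edgeR adjusted p = 7.92e-10). Il33, the nuclear alarmin, was at 15.2, 14.1 and 18.6 RPKM, all above the controls (1.39 ± 0.16, adjusted p = 7.41e-07). Of the other ligands, Il18 was at 22.7, 19.4 and 15 RPKM, below all 3 controls (-1.05 ± 0.16, adjusted p = 2.68e-05), a size close to the threshold of 1. It came under that threshold without D387A Cflar Mlkl library 3 (-0.90), without Mlkl library 1 (-0.97) and with both Mlkl groups pooled (-0.94). Il1a was at 2.17, 1.36 and 2.92 RPKM, also below every control, but it missed the call (-0.95 ± 0.40, adjusted p = 0.0517). With the replicate number as a block it was called lower (-1.01, edgeR adjusted p = 0.00582); the study describes these controls as littermates, but no source says that a number marks a litter.

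The antagonist and decoys rose beside Il1b. Il1rn was at 9.99, 9.23 and 17.3 RPKM, against a control high of 0.758 (log2 fold change 4.71 ± 0.54 SE, edgeR adjusted p = 7.87e-07). Il1r2, the decoy receptor that mops up IL-1, was at 14.6, 15.2 and 20.1 RPKM, with controls at 0.782, 1.04 and 0.952 (4.16 ± 0.35, adjusted p = 2.4e-08). Neither gene's libraries overlapped the controls. Il18bp was at 5.18, 3.63 and 6.87 RPKM, above the controls at 1.1, 1.46 and 1.6 (1.92 ± 0.50, adjusted p = 0.00315). Of the remaining receptors, Il1r1 was at 8.73, 7.94 and 9.05 RPKM (1.42 ± 0.16, adjusted p = 7.03e-07). Il1rl1 was at 4.53, 1.82 and 5.75 RPKM with the second library well below the other two, yet all 3 above the controls (3.01 ± 0.53, adjusted p = 0.000104).

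Markers of other cell types moved in the same libraries, and their part in these changes was not tested. The summed RPKM of 11 neutrophil markers was 9.51 to 39.3 in Mlkl and 68.8 to 246 in D387A Cflar Mlkl intestines, with 1 of the 11 at 0 reads there. The 10 macrophage and monocyte markers summed to 174 to 197 and 277 to 360, the 7 mast cell and ILC2 markers to 9.94 to 11.4 and 15.3 to 20.7, the T and NK cell markers to 9.63 to 12 and 19 to 27, the 5 smooth muscle markers to 1655 to 1816 and 2261 to 2802, and the 8 enterocyte markers to 33740 to 38434 and 1297 to 2702. The 7 fibroblast markers summed to 741 to 822 and 980 to 1034, and the 4 endothelial markers to 60.3 to 66.5 and 71.4 to 87.1. Neuron and glia markers went from 20 to 23.9 down to 16.9 to 18.2, and pancreatic acinar markers from 35.9 to 71.9 down to 5.76 to 18.4. The 8 general epithelial markers, at 1566 to 1772 and 1748 to 1875, overlapped.

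In the catalytically dead C362A Mlkl intestines, which keep Cflar, Il1a, Il1b, Il33, the antagonist, the decoys and the receptors rose, but not Il18. Of the 9 genes, 8 were called higher than in the C362A set Mlkl controls, where 10.4% of all genes were, and Il18 was not called. Their median log2 fold change was 3.43, beside 0.02 over all genes. Il1b was at 44.1, 43.5 and 47.6 RPKM, a narrow band far above the control high of 1.98 (4.99 ± 0.33 SE, edgeR adjusted p = 3.33e-08). Il1a was at 20.7, 15.7 and 25 RPKM, with controls at 5.53, 6.48 and 6.51 (1.73 ± 0.44, adjusted p = 0.00584). Il33 was at 12.9, 14.9 and 16.4 RPKM, above controls of 3.63 to 5.11 (1.70 ± 0.21, adjusted p = 1.44e-05). Il18 was at 31.7, 22.7 and 27.8 RPKM and overlapped its controls (-0.36 ± 0.20, adjusted p = 0.175).

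Il1rn reached 16.3, 19.6 and 27.7 RPKM in C362A Mlkl intestines, beside 0.285, 0.585 and 0.435 in the controls (log2 fold change 5.59 ± 0.31 SE, edgeR adjusted p = 6.47e-09). Il18bp was at 26.8, 27.3 and 29.1 RPKM, beside 1.92, 2.75 and 3.04 (3.43 ± 0.21, adjusted p = 1.33e-08). Both inhibitors were clear of the controls in every library. Il1r2 was at 28.1, 32.9 and 34.7 RPKM (4.55 ± 0.26, adjusted p = 8.8e-09), Il1r1 at 10.2, 10.4 and 10.8 (1.5 ± 0.13, adjusted p = 3.28e-07) and Il1rl1 at 6.49, 6.16 and 9.73 (3.91 ± 0.24, adjusted p = 1.33e-08). The controls of these receptors reached no higher than 2.06, 3.92 and 0.634 RPKM. Neutrophil markers summed to 588 to 728 RPKM beside 20 to 54.4 in the controls, macrophage and monocyte markers to 501 to 515 beside 149 to 183, T and NK cell markers to 41.6 to 43.8 beside 9.26 to 12.1, and enterocyte markers to 14349 to 17857 beside 29293 to 48288. Mast cell and ILC2 markers, the cells known for ST2, summed to 12.2 to 15.1 beside 7.73 to 11.1, and epithelial markers to 2056 to 2458 beside 1475 to 1722, and their part was not tested.

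In C362A Cflar Mlkl intestines Il1b, Il33, the inhibitors and the receptors rose as well, but not Il1a. Of the 9 genes, 7 were called higher than in Mlkl controls, where 13.4% of all genes were. Il1b was at 66.2, 40.1 and 30 RPKM, Il1r2 at 43.9, 48 and 27.9, and Il1rn at 12.2, 11.8 and 14.1, with log2 fold changes of 5.0 ± 0.33, 4.87 ± 0.26 and 4.86 ± 0.30 (SE). Il1a was at 1.35, 1.67 and 7.83 RPKM, so that the third library lay above every control and the other two below them (-0.76 ± 0.46, edgeR adjusted p = 0.175). Without the third library Il1a was called lower (-2.04, adjusted p = 1.57e-06), as it was by limma-voom with all libraries (-1.22, adjusted p = 0.0308). Neutrophil markers summed to 304 to 494 RPKM beside 20 to 54.4 in the controls, macrophage and monocyte markers to 337 to 460 beside 149 to 183, and T and NK cell markers to 29.1 to 43 beside 9.26 to 12.1. Mast cell and ILC2 markers summed to 11.6 to 18.1 beside 7.73 to 11.1, smooth muscle markers to 2047 to 2692 beside 896 to 1332, and enterocyte markers to 2234 to 6882 beside 29293 to 48288. The part of these was not tested.

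Removing Cflar from C362A Mlkl intestines lowered 3 of the 9 genes, where 4.62% of all genes were called lower, and raised none of them past the threshold. Il1a fell by 2.49 ± 0.46 on the log2 scale (edgeR adjusted p = 0.00209), Il18bp by 1.93 ± 0.19 (adjusted p = 7.56e-05) and Il1rl1 by 1.09 ± 0.20 (adjusted p = 0.00228). The libraries of each did not overlap. Without the third C362A Cflar Mlkl library the change of Il1a was -3.76. Il1rl1 came under the fold threshold without the third C362A Mlkl library (-0.85) and without the first (-1.0) or the second (-0.99) C362A Cflar Mlkl library. Il18bp was at 6.77, 5.57 and 9.48 RPKM without Cflar, and Il1rl1 at 3.05, 3.02 and 4.47. Il1b and Il1r2 were not called, with log2 fold changes of 0.01 ± 0.26 and 0.32 ± 0.21. Enterocyte markers summed to 2234 to 6882 RPKM without Cflar beside 14349 to 17857 with it, neutrophil markers to 304 to 494 beside 588 to 728, macrophage and monocyte markers to 337 to 460 beside 501 to 515, epithelial markers to 1388 to 1931 beside 2056 to 2458, and the 5 smooth muscle markers to 2047 to 2692 beside 1094 to 1498, and their part was not tested.

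The change from Mlkl to Cflar Mlkl was next compared between D387A and C362A, each against its own controls. By the interaction contrast in edgeR, 0 of the 9 genes differed, where 0.127% of all genes did, and limma-voom and DESeq2 gave 0 as well. The unadjusted p was under 0.05 for 2 of them, Il33 (difference -0.58 ± 0.26 SE) and Il18 (-0.59 ± 0.27). For Il1b the difference was 0.73 ± 0.55 and for Il1a -0.19 ± 0.65, so differences of that size in either direction were within the error.

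**Figure D2:**
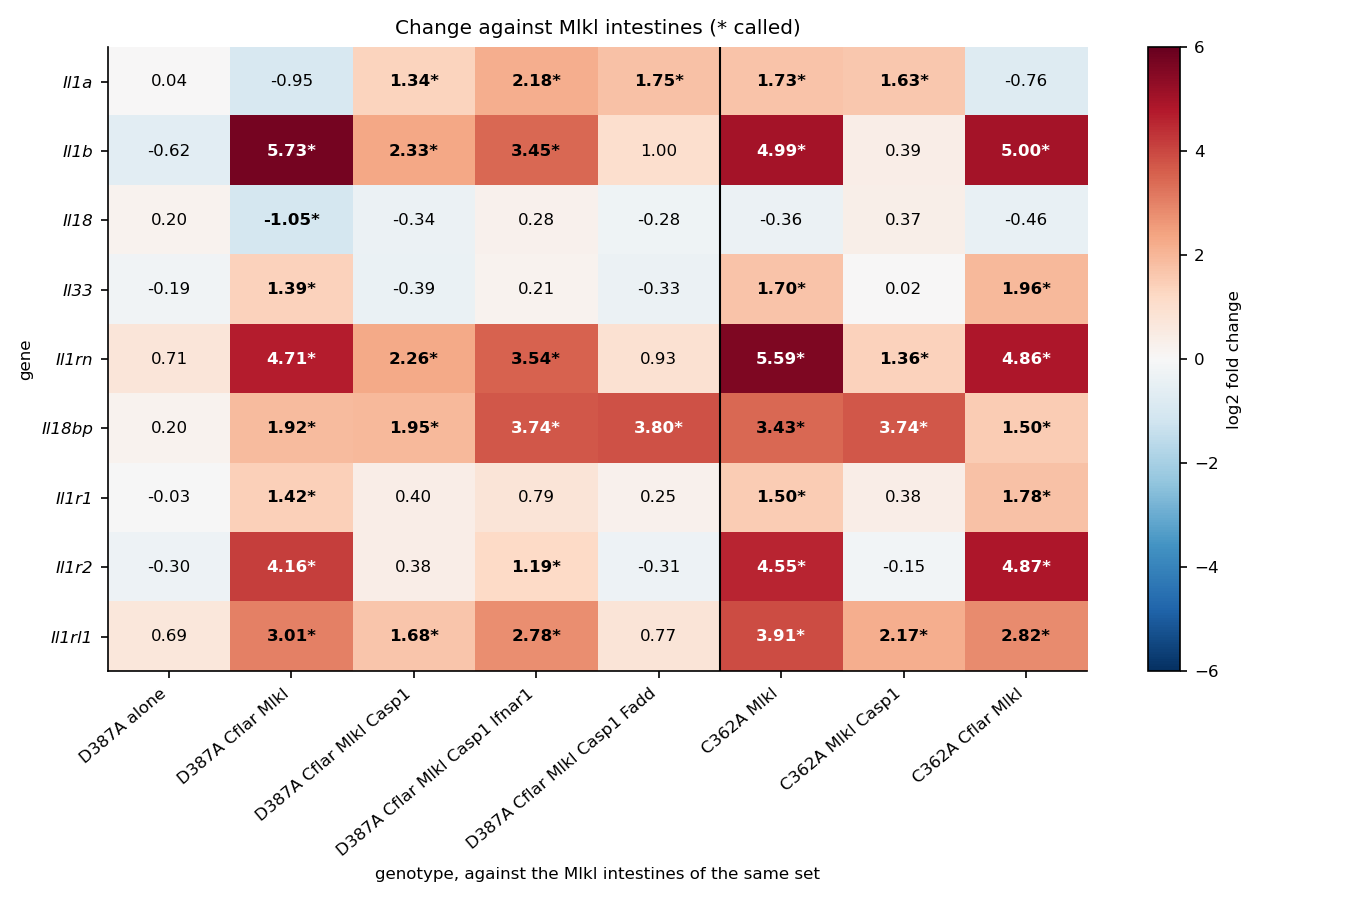
Log2 fold change of each gene (rows) in each intestine genotype (columns) against the Mlkl intestines of the same set; red is higher, blue is lower, and a star and bold type mark calls at an adjusted p under 0.05 and a log2 fold change over 1 in size. The line separates the D387A set from the C362A set; Il1b reads 5.73, 4.99 and 5.0 in D387A Cflar Mlkl, C362A Mlkl and C362A Cflar Mlkl, and 0.39 in C362A Mlkl Casp1.

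Loss of Casp1, the IL-1β and IL-18 protease, split the family into genes that fell and genes that did not. In D387A Cflar Mlkl intestines, 6 of the 9 genes were called lower when Casp1 was deleted, where 4.51% of all genes were, and 1 was called higher, where 8.88% were. In C362A Mlkl intestines, 6 of 9 were called lower, where 5.72% of all genes were, and 0 higher, where 5.6% were. The 6 were Il1b, Il1rn, Il33, Il1r1, Il1r2 and Il1rl1 in both. These comparisons share the Casp1-intact libraries with those against Mlkl intestines, so the rise there and the fall here are not independent. The backgrounds also differ in Cflar, absent in the first and present in the other.

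Il1b dropped to 2.01, 1.39 and 3.48 RPKM in D387A Cflar Mlkl Casp1 intestines (log2 fold change -3.40 ± 0.30 SE, edgeR adjusted p = 1.06e-07) and to 1.9, 2.27 and 1.42 in C362A Mlkl Casp1 intestines (-4.60 ± 0.33, adjusted p = 2.73e-07). All 6 of these libraries lay below every Casp1-intact one. The first group still exceeded its Mlkl controls (2.33 ± 0.40, adjusted p = 0.00077), whereas the other overlapped its own (0.39 ± 0.36, adjusted p = 0.424). Il1r2 fell to 0.897, 0.507 and 2.22 RPKM (-3.79 ± 0.34, adjusted p = 1.33e-07) and to 1.13, 1.32 and 1.21 (-4.70 ± 0.27, adjusted p = 5.4e-08), overlapping the Mlkl controls in both sets.

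Il33 fell to 5.02, 3.33 and 5.6 RPKM and to 3.1, 5.95 and 4.7 RPKM, by 1.78 ± 0.16 and 1.68 ± 0.21 on the log2 scale (edgeR adjusted p = 1.29e-07 and 3.8e-05). Il1r1 fell by 1.02 ± 0.16 and 1.12 ± 0.13 (adjusted p = 4.67e-05 and 1.47e-05), the first close to the threshold. It came under the threshold without D387A Cflar Mlkl library 3 (-0.98) or Casp1 library 1 or 2 (-0.96 and -0.84). Neither gene's libraries overlapped those with intact Casp1. Il1rn fell to 1.48, 1.1 and 4.14 RPKM (-2.45 ± 0.45, adjusted p = 0.000247) and to 1.46, 1.26 and 0.665 RPKM (-4.23 ± 0.28, adjusted p = 1.67e-07). Il1rl1 fell to 0.752, 0.631 and 3.47 RPKM, where the third library overlapped the Casp1-intact group (-1.33 ± 0.48, adjusted p = 0.0302), and to 2.4, 2.15 and 2.18 RPKM in C362A Mlkl Casp1 intestines, clear of it (-1.73 ± 0.21, adjusted p = 2.69e-05). In the D387A set the Il1rl1 call was lost without D387A Cflar Mlkl library 1 or 3 (edgeR adjusted p = 0.0746 and 0.138), without Casp1 library 1 or 2 (0.123 and 0.124) and in a fit of only the 2 groups (0.161).

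Il1a, Il18 and Il18bp were not called lower with all libraries included. Il1a was at 5.73, 6.44 and 19.6 RPKM in D387A Cflar Mlkl Casp1 intestines, above all Casp1-intact libraries (log2 fold change 2.29 ± 0.39 SE, edgeR adjusted p = 0.00014). In C362A Mlkl Casp1 intestines it was at 20.8, 16.9 and 19.6 RPKM and overlapped the Casp1-intact libraries (-0.10 ± 0.43, adjusted p = 0.874). The difference between backgrounds was 2.41 ± 0.62 (adjusted p = 0.00978), and 1.63 ± 0.56 without the third D387A Cflar Mlkl Casp1 library (adjusted p = 0.0377). Il18 was higher by similar amounts, 0.71 ± 0.16 and 0.73 ± 0.20 (adjusted p = 0.00167 and 0.0136), with no overlap, yet under the fold threshold. Il18bp stood at 32.6, 40.2 and 30.1 RPKM without Casp1 in the C362A set, all above the Casp1-intact libraries, and missed the call (0.31 ± 0.18, adjusted p = 0.214).

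The third library decided Il18bp in the D387A set. With it, Il18bp was at 1.8, 2.66 and 11.7 RPKM and its change was 0.03 ± 0.44 (edgeR adjusted p = 0.958). Without it, Il18bp was called lower (-1.23 ± 0.24, adjusted p = 0.000406), and its difference from the C362A background was called too (-1.51 ± 0.32, adjusted p = 0.00172). The rise of Il1a was 1.5 ± 0.26 without that library (adjusted p = 0.00013), and the changes of Il1rl1 and Il1rn were -2.55 ± 0.35 (adjusted p = 1.16e-05) and -3.24 ± 0.42. The other changes without it were -3.83 ± 0.30 for Il1b, -4.56 ± 0.29 for Il1r2, -1.93 ± 0.17 for Il33, -1.31 ± 0.12 for Il1r1 and 0.50 ± 0.15 for Il18.

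By the interaction contrast, 2 of the 9 genes differed between backgrounds in their response to Casp1 loss, Il1a and Il1rn (1.80 ± 0.57 SE, edgeR adjusted p = 0.0298), where 16.9% of all genes did. Il1rn was lost from that count without the third library (1.02 ± 0.52, adjusted p = 0.16). Il1b differed by 1.22 ± 0.45 (adjusted p = 0.0605), and it passed under 4 alternatives, among them no filter on low counts (adjusted p 0.0158 to 0.045). Neutrophil markers summed to 17.3 to 51.2 RPKM in D387A Cflar Mlkl Casp1 and 55.4 to 79.8 in C362A Mlkl Casp1 intestines, each below its own Casp1-intact group at 68.8 to 246 and 588 to 728. Enterocyte markers summed to 18033 to 24491 and 44784 to 56878, each above its own Casp1-intact group at 1297 to 2702 and 14349 to 17857. T and NK cell markers summed to 6.05 to 7.73 and 14 to 20.2 without Casp1, beside 19 to 27 and 41.6 to 43.8 with it. Fibroblast markers summed to 761 to 899 and 238 to 388, beside 980 to 1034 and 394 to 511. In the D387A set smooth muscle markers went from 2261 to 2802 down to 1468 to 1587. In the C362A set macrophage and monocyte markers went from 501 to 515 down to 265 to 296, mast cell and ILC2 markers from 12.2 to 15.1 down to 6.59 to 10.2, and neuron and glia markers from 11.2 to 14.8 down to 6.11 to 9.39. The part of these in the falls was not tested.

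**Figure D3:**
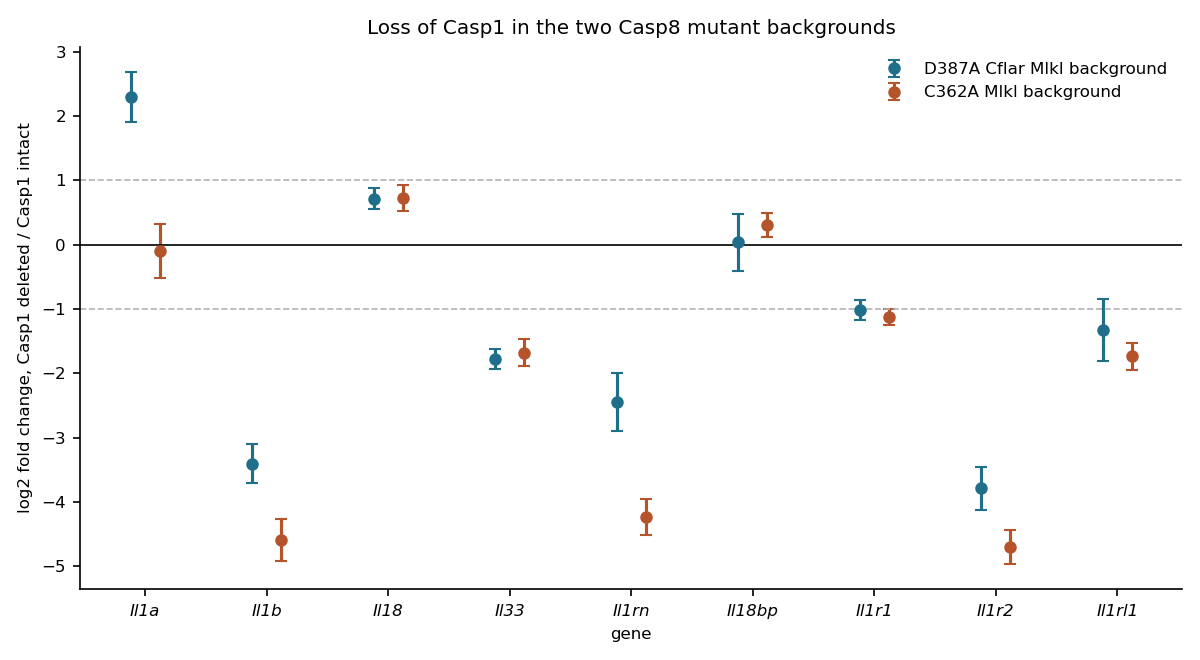
Log2 fold change on deletion of Casp1 for each gene in the D387A Cflar Mlkl background (blue) and the C362A Mlkl background (orange); bars are standard errors and dashed lines mark a log2 fold change of 1 either way. Il1b, Il33, Il1rn, Il1r1, Il1r2 and Il1rl1 sit below -1 in both, Il18 at 0.71 and 0.73, and Il1a at 2.29 and -0.10.

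Measured against Mlkl controls, D387A Cflar Mlkl Casp1 intestines had 5 of 9 genes called higher, where 2.16% of all genes were: Il1a, Il1b, Il1rn, Il18bp and Il1rl1. Without the third library 2 were called, Il1b (log2 fold change 1.90 ± 0.38 SE, edgeR adjusted p = 0.00254) and Il1rn (1.47 ± 0.49, adjusted p = 0.0463), while Il18bp went from 1.95 ± 0.50 to 0.69 ± 0.27, Il1rl1 from 1.68 ± 0.53 to 0.46 ± 0.37 and Il1a from 1.34 ± 0.38 to 0.55 ± 0.25. With all libraries, those 3 calls were also lost by limma-voom (adjusted p 0.0602 to 0.203), in a fit of only the 2 groups (0.0938 to 0.127) and without the first Mlkl library (0.0528 to 0.122), and that of Il1rn in the fit of only the 2 groups (0.0529). Macrophage and monocyte markers summed to 230 to 370 RPKM beside 174 to 197 in the controls, mast cell and ILC2 markers to 16.7 to 21.5 beside 9.94 to 11.4, and endothelial markers to 77 to 86.5 beside 60.3 to 66.5. Enterocyte markers were lower, at 18033 to 24491 beside 33740 to 38434, as were those of T and NK cells (6.05 to 7.73 beside 9.63 to 12), smooth muscle (1468 to 1587 beside 1655 to 1816) and pancreatic acinar cells (7.81 to 9.13 beside 35.9 to 71.9). The part of these was not tested.

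C362A Mlkl Casp1 intestines had 4 called higher, where 6.79% of all genes were: Il18bp (3.74 ± 0.21, adjusted p = 9.24e-09), Il1rl1 (2.17 ± 0.23), Il1a (1.63 ± 0.44) and Il1rn (1.36 ± 0.32). Il1b, Il33, Il1r2 and Il18 were not called there. Macrophage and monocyte markers summed to 265 to 296 RPKM beside 149 to 183 in the controls, neutrophil markers to 55.4 to 79.8 beside 20 to 54.4, T and NK cell markers to 14 to 20.2 beside 9.26 to 12.1, and epithelial markers to 2380 to 2548 beside 1475 to 1722. Neuron and glia markers were lower (6.11 to 9.39 beside 13.9 to 20.6), and what these contribute was not tested.

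Deleting Ifnar1, the type I interferon receptor subunit, gave no lower call in the D387A Cflar Mlkl Casp1 background. Of the family, 3 of 9 genes were called higher, where 3.28% of all genes were. Il18bp was at 15.1, 18.4 and 22.3 RPKM (log2 fold change 1.80 ± 0.44 SE, edgeR adjusted p = 0.00639), Il1b at 4.54, 4.46 and 5.99 (1.13 ± 0.30, adjusted p = 0.0098) and Il1rn at 5.27, 5.14 and 5.83 (1.28 ± 0.44, adjusted p = 0.0371). No library of these 3 genes overlapped the Ifnar1-intact group, although the third library of that group came closest. The Il1rn call was lost by DESeq2 (adjusted p = 0.069), in a fit of only the 2 groups (0.0875), without Ifnar1-intact library 1 or 2 (0.145 and 0.157) and without any 1 of the Ifnar1 libraries (0.0554, 0.0755 and 0.095). The Il1b call was lost in the fit of only the 2 groups (0.0608), without Ifnar1-intact library 2 (0.86, edgeR adjusted p = 0.0579) and, by the fold threshold, without Ifnar1 library 3 (0.97). The Il18bp call was lost in the fit of only the 2 groups (0.0914). By adjusted p alone, in either direction, 5 of 9 passed, where 30.6% of all genes did. Il1a was at 16.8, 17.6 and 22.3 RPKM, overlapping the Ifnar1-intact group through the third of its libraries (0.84 ± 0.35, adjusted p = 0.0824). Without the third library 6 of 9 were called, with Il1a at 1.63 ± 0.25, Il1r2 at 1.58 ± 0.30, Il1rl1 at 2.32 ± 0.35, Il18bp at 3.06 ± 0.25, Il1b at 1.55 ± 0.29 and Il1rn at 2.07 ± 0.41. By limma-voom with all libraries, Il1a, Il1r2 and Il1rl1 were called higher too (limma-voom adjusted p = 0.0155, 0.0468 and 0.017). Il1rl1 was also called with no filter on low counts (1.11, edgeR adjusted p = 0.0141) and with a replicate block (1.28, edgeR adjusted p = 0.0431). T and NK cell markers summed to 9.7 to 13.7 RPKM beside 6.05 to 7.73 in the Ifnar1-intact group, and epithelial markers to 2249 to 2407 beside 1409 to 2126, with no overlap. Mast cell and ILC2 markers were lower, at 13.2 to 15.1 beside 16.7 to 21.5, as were those of fibroblasts (648 to 675 beside 761 to 899), endothelium (56.9 to 64.8 beside 77 to 86.5) and neurons and glia (13.9 to 14.8 beside 17.5 to 24.4), and pancreatic acinar markers were higher (50.9 to 114 beside 7.81 to 9.13). Neutrophil markers summed to 49.5 to 67.7 beside 17.3 to 51.2 and macrophage and monocyte markers to 343 to 423 beside 230 to 370, with overlap. The part of these was not tested.

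Against Mlkl controls, D387A Cflar Mlkl Casp1 Ifnar1 intestines had 6 of 9 genes called higher, where 6.76% of all genes were. They were Il1rn (log2 fold change 3.54 ± 0.53 SE), Il18bp (3.74 ± 0.50), Il1b (3.45 ± 0.38), Il1rl1 (2.78 ± 0.53), Il1a (2.18 ± 0.38) and Il1r2 (1.19 ± 0.37). The Il1r2 call was lost without the first Mlkl library (1.07, edgeR adjusted p = 0.0579), without the second Ifnar1 library (0.93, adjusted p = 0.0783) and, by the fold threshold, with both Mlkl groups pooled as controls (0.88). Il33, at 5.83, 7.4 and 8 RPKM, and Il18, at 42.7, 51.6 and 48.5, overlapped the controls. Macrophage and monocyte markers summed to 343 to 423 RPKM beside 174 to 197 in the controls, neutrophil markers to 49.5 to 67.7 beside 9.51 to 39.3, mast cell and ILC2 markers to 13.2 to 15.1 beside 9.94 to 11.4, and epithelial markers to 2249 to 2407 beside 1566 to 1772. Lower were the markers of enterocytes (19793 to 28449 beside 33740 to 38434), fibroblasts (648 to 675 beside 741 to 822), smooth muscle (1498 to 1597 beside 1655 to 1816) and neurons and glia (13.9 to 14.8 beside 20 to 23.9). The part of these was not tested.

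With Fadd, the adaptor that recruits caspase-8, also deleted, Il1a and Il18bp were called higher than in Mlkl controls and Il1b was not called. In D387A Cflar Mlkl Casp1 Fadd intestines Il18bp was at 17.6, 19.9 and 20.7 RPKM and Il1a at 12.6, 10.8 and 18.7, while Il1b was at 0.588, 1.04 and 1.1. Against Mlkl controls, Il18bp (log2 fold change 3.80 ± 0.50 SE, edgeR adjusted p = 5.76e-05) and Il1a (1.75 ± 0.38, adjusted p = 0.00363) were the 2 genes called higher, where 2.81% of all genes were. Il1b overlapped the controls (1.00 ± 0.45, adjusted p = 0.135). Macrophage and monocyte markers (201 to 222 RPKM beside 174 to 197) and epithelial markers (2026 to 2185 beside 1566 to 1772) were higher than in the controls. Markers of mast cells and ILC2 (8.52 to 8.95 beside 9.94 to 11.4), fibroblasts (645 to 715 beside 741 to 822), smooth muscle (1365 to 1623 beside 1655 to 1816) and neurons and glia (17.3 to 18.1 beside 20 to 23.9) were lower, and the part of these was not tested.

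Against the Fadd-intact D387A Cflar Mlkl Casp1 group, Il18bp was called higher, as 2.56% of all genes were (log2 fold change 1.86 ± 0.44 SE, edgeR adjusted p = 0.00788), and Il1b lower, as 0.877% were (-1.33 ± 0.35, adjusted p = 0.0144). Without the third Fadd-intact library Il1b was no longer called (-0.90 ± 0.34, adjusted p = 0.0623), Il1a was (1.2 ± 0.25, adjusted p = 0.00196), and the Il18bp change was 3.12 ± 0.25. The Il1b call was also lost by limma-voom (adjusted p = 0.0633), without the first Fadd library (edgeR adjusted p = 0.068) and in a fit of only the 2 groups (0.0861), where Il18bp lost its call too (0.107). Il1rn, at 0.687, 1.59 and 0.373 RPKM, missed the call (-1.33 ± 0.49, adjusted p = 0.0708), and its change was -0.54 ± 0.44 without that library (adjusted p = 0.418). It was called lower with no filter on low counts (-1.32, edgeR adjusted p = 0.00881), without the second Fadd-intact library (-1.66, adjusted p = 0.0313) and without the second Fadd library (-2.07, adjusted p = 0.0216). Il33, Il1r1, Il1r2 and Il1rl1 were not called. Enterocyte markers summed to 34488 to 40020 RPKM beside 18033 to 24491 in the Fadd-intact group, T and NK cell markers to 8.09 to 12.6 beside 6.05 to 7.73, and pancreatic acinar markers to 11.9 to 65.2 beside 7.81 to 9.13. Lower were the markers of macrophages and monocytes (201 to 222 beside 230 to 370), mast cells and ILC2 (8.52 to 8.95 beside 16.7 to 21.5), fibroblasts (645 to 715 beside 761 to 899) and endothelium (60.2 to 67 beside 77 to 86.5), and the part of these was not tested.

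The balance of inhibitor to ligand was set out per library as ratios of RPKM, listed from low to high within a group and with no test. Il1rn over the sum of Il1a and Il1b was 0.048, 0.085 and 0.164 in the D387A set controls and 0.44, 0.441 and 0.49 in D387A Cflar Mlkl intestines. It was 0.038 to 0.081 in the C362A set controls, 0.251 to 0.382 in C362A Mlkl and 0.032 to 0.066 in C362A Mlkl Casp1 intestines. The antagonist was below its ligands in every intestine library, and this ratio was highest in D387A Cflar Mlkl intestines. Il18bp over Il18 was 0.026 to 0.043 in D387A set controls, 0.069 to 0.077 in C362A set controls, 0.846, 1.05 and 1.21 in C362A Mlkl, and 0.647 to 0.835 in C362A Mlkl Casp1 intestines. It was 0.554 to 0.628 in D387A Cflar Mlkl Casp1 Fadd intestines, above the 0.188 to 0.459 of D387A Cflar Mlkl.

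**Figure D4:**
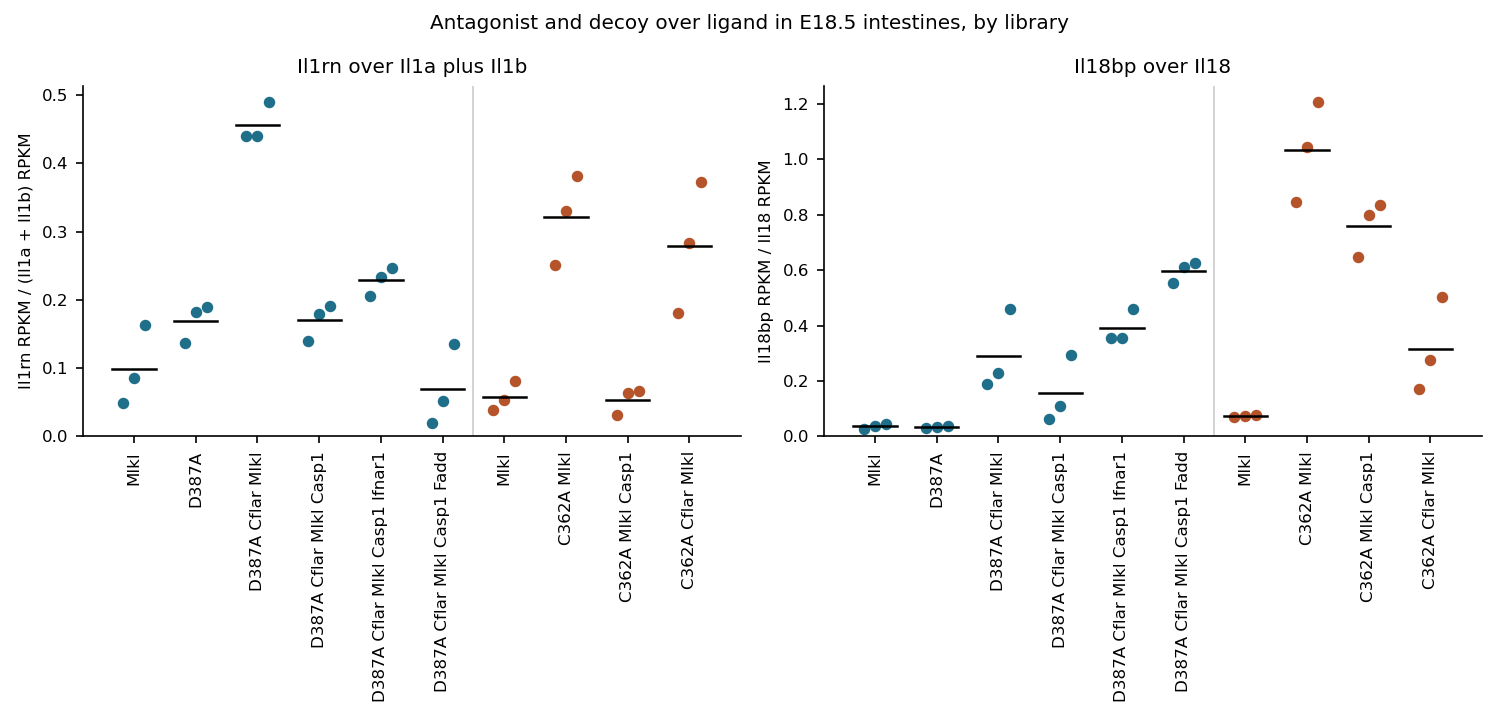
Left, Il1rn RPKM divided by the sum of Il1a and Il1b RPKM; right, Il18bp RPKM divided by Il18 RPKM, in every intestine library from low to high within a group (blue, D387A set; orange, C362A set; bars, means of 3). The left ratio is 0.44 to 0.49 in D387A Cflar Mlkl and 0.032 to 0.066 in C362A Mlkl Casp1; the right ratio stays at 0.647 to 0.835 in C362A Mlkl Casp1.

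MEFs of the same D387A Cflar Mlkl genotype did not show the intestinal profile. Il1b had 0 reads in all 6 MEF libraries, which allows at most 0.105 RPKM in any of them, and Il1a had 2 reads in 1 D387A Cflar Mlkl library and 0 in the other 5, so neither was tested. Of the 7 genes tested, 0 were called by edgeR, where 0.0711% of all genes were. By limma-voom and DESeq2 0 were called too, and 1 gene, Il1rl1, had an unadjusted p under 0.05. Il1rl1 was the most abundant member in MEFs, at 39.4, 79.1 and 58.7 RPKM in Mlkl and 73.5, 117 and 129 in D387A Cflar Mlkl MEFs, with overlapping libraries (log2 fold change 0.85 ± 0.27 SE, edgeR adjusted p = 0.639). The library of each replicate number was higher in D387A Cflar Mlkl than in Mlkl MEFs. With the replicate number as a block the difference was 0.87 ± 0.095 (edgeR adjusted p = 0.0126), past the adjusted p but under the fold threshold. Whether the number marks a pair of libraries is not known. In intestines Il1rl1 reached at most 9.73 RPKM. Il1r1 was at 16.3, 22.6 and 20.3 against 18.2, 28 and 26.7 RPKM (0.30 ± 0.17, adjusted p = 0.822). Il1rn was at 20.1, 10.6 and 6.56 against 19.3, 14.8 and 8.86 RPKM, with a wide spread in both groups (0.19 ± 0.39). Il18 and Il18bp were at 0.732 to 0.954 and 0.917 to 1.28 RPKM in MEFs. Macrophage and monocyte markers summed to 117 to 150 RPKM in D387A Cflar Mlkl beside 48.2 to 60.9 in Mlkl MEFs, and neutrophil markers to 0.617 to 2.92 beside 0.15 to 0.371.

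The change from Mlkl to D387A Cflar Mlkl differed between intestine and MEFs for all 7 genes that could be compared, where 38.4% of all genes differed. The difference, intestine minus MEFs, was largest for Il1rn (4.54 ± 0.72 SE, edgeR adjusted p = 3.48e-05), followed by Il1r2 (3.37 ± 0.82, adjusted p = 0.00245). It was 2.18 ± 0.67 for Il1rl1, 2.10 ± 0.36 for Il33, 2.07 ± 0.67 for Il18bp, 1.15 ± 0.25 for Il1r1 and -1.05 ± 0.33 for Il18. By limma-voom 6 of the 7 differed, Il18 being the exception (-1.08, adjusted p = 0.114). Il1r2 missed the threshold without the second Mlkl MEF library (2.32, edgeR adjusted p = 0.105). Neutrophil markers summed to at most 2.92 RPKM in MEFs, with 2 or 3 of the 11 at 0, and the part of such cells in the difference was not tested.

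**Figure D5:**
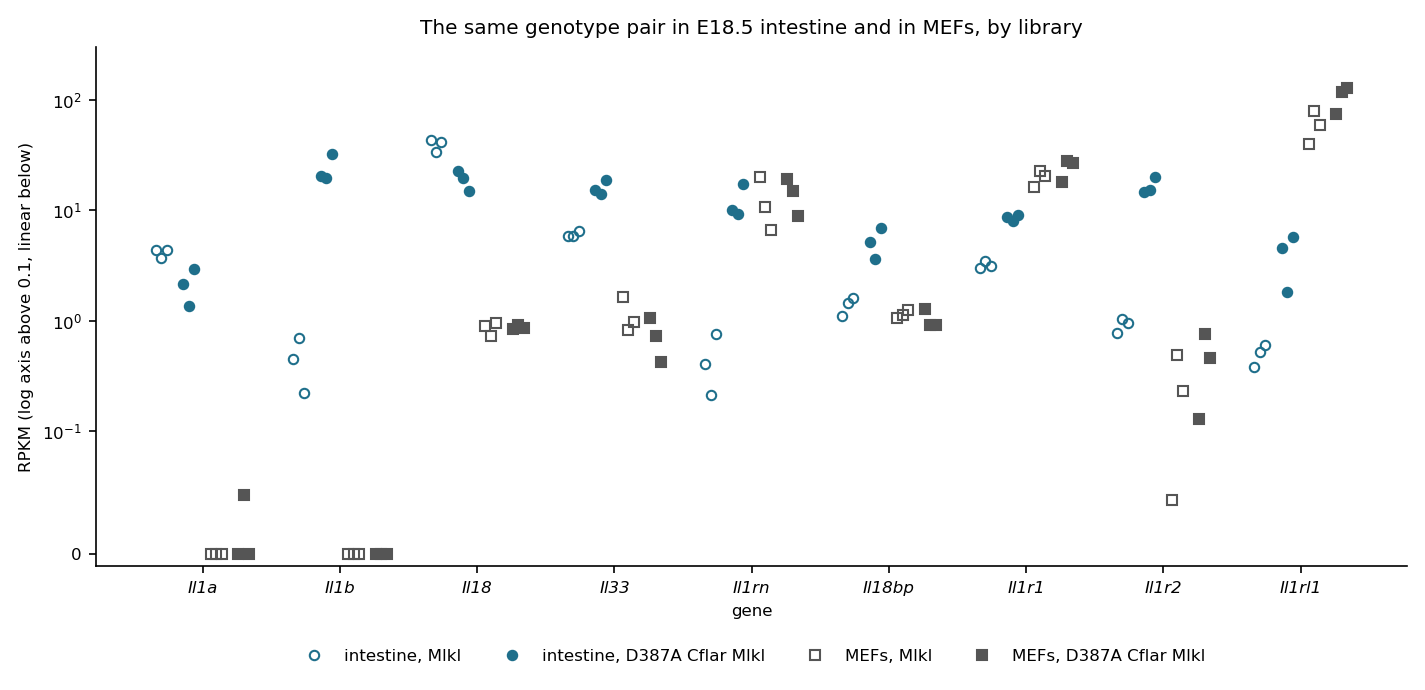
RPKM of each gene in intestines (circles) and MEFs (squares), with open symbols for Mlkl and filled symbols for D387A Cflar Mlkl, 3 libraries each; the axis is logarithmic above 0.1 RPKM and linear below. Il1b lies at 0 in all MEFs and rises to between 19.6 and 32.5 in D387A Cflar Mlkl intestines, while Il1rl1 is highest in MEFs of both genotypes.

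The rest of the pathway was read from lists of family ligands, receptors, signal transducers, processing factors and response genes. Of 5 further ligands, none passed the filter on low counts in the D387A set and 1 did in the C362A set: Il1f9, which encodes the epithelial cytokine IL-36γ. It had 1 read over the 3 C362A set controls, 375 in C362A Mlkl, 90 in C362A Cflar Mlkl and 5 in C362A Mlkl Casp1 intestines. Beside the counts that follow, 9.4% of all genes were called higher and 12.8% lower in D387A Cflar Mlkl intestines, 10.4% higher and 7.55% lower in C362A Mlkl intestines, and on Casp1 loss 8.88% higher and 4.51% lower in the D387A set and 5.6% higher and 5.72% lower in the C362A set. Of 7 further receptors, 6 were tested. In D387A Cflar Mlkl intestines 2 were called higher, with Il18rap, the accessory chain of the IL-18 receptor, the largest at 0.841 ± 0.103 RPKM against 0.341 ± 0.0366 (SD, n = 3; log2 fold change 1.30 ± 0.28 SE). There 1 was called lower, Sigirr, an inhibitory receptor of the family, at 8.92 ± 0.977 against 31.6 ± 2.61 RPKM (-1.83 ± 0.10). In C362A Mlkl intestines 3 of 6 were higher, Il18rap by 3.23 ± 0.22, and 0 were lower.

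Casp1 loss lowered Il18rap in both backgrounds, by 1.60 ± 0.29 and 2.45 ± 0.21 on the log2 scale, and raised Sigirr in the D387A Cflar Mlkl background (1.26 ± 0.10 SE). The fall of Il18rap went with that of the T and NK cell markers given above for Casp1 loss, whose part in it was not tested. Of 14 signal transducers tested, Irak3, a brake on the MyD88 pathway, was the 1 called higher in D387A Cflar Mlkl intestines (1.86 ± 0.16), and Irak3 (1.53 ± 0.19) and the adaptor Myd88 were the 2 in C362A Mlkl intestines. As a share of the list, these counts were close to those over all genes. Irak3 was the 1 gene of the list called lower on Casp1 loss in each background (-1.17 ± 0.16 and -1.71 ± 0.19).

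Of 13 processing and release genes, 3 were called higher in D387A Cflar Mlkl intestines (Casp4, Mefv and Nlrp3), where 9.4% of all genes were, and 5 in C362A Mlkl intestines, where 10.4% were, with none lower. The largest rise was in Mefv, which encodes the inflammasome sensor pyrin, in the first (2.13 ± 0.36 SE) and in Nlrp3, another sensor, in the other (3.94 ± 0.25). On Casp1 loss 3 and 5 were called lower. These counts include Casp1 itself, which fell the most in both sets, a fall fixed in advance by its deletion. Pycard, the inflammasome adaptor ASC, was the 1 called higher, in the C362A set (1.13 ± 0.24, edgeR adjusted p = 0.00248).

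Of the 13 IL-1 and IL-18 response genes, 12 were tested in the D387A set, and 11 were called higher and 1 lower in D387A Cflar Mlkl intestines, where 9.4% and 12.8% of all genes were. Csf3, the neutrophil growth factor, rose from 0 to 47 reads over 3 libraries, while Csf2 was the 1 that fell (-2.16 ± 0.42 SE, edgeR adjusted p = 0.000292). In C362A Mlkl intestines 11 of 13 were called higher, led by the neutrophil chemokine Cxcl2 (7.91 ± 0.44), and Csf2 lower (-1.44 ± 0.40). On Casp1 loss in the D387A Cflar Mlkl background 3 were lower, led by Il6 (-3.83 ± 0.49), and 2 higher, led by Csf2 (1.73 ± 0.44). In the C362A Mlkl background 5 were lower, with Ifng going from 94 to 3 reads, and 1 higher, the chemokine Ccl20 (2.24 ± 0.22). In MEFs 1 of 9 tested was called, Nfkbia (1.12 ± 0.07), where 0.0711% of all genes were.

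Genes with the most similar profile were sought for the 8 members called in at least 3 of the comparisons with own Mlkl intestines, which leaves out Il18. They were found over the 8 log2 fold changes against own Mlkl intestines, 5 of which share the D387A set controls and 3 the C362A set controls, among 18195 genes. The smaller the root mean square difference, the closer the profile. Nearest to Il1b were the matrix metalloproteinases Mmp12 (0.579) and Mmp7 (0.651). Nearest to Il1rn were the C-type lectins Clec4d (0.317) and Clec4e (0.409), and nearest to Il1r2 were Gm5483 (0.521), Hp (0.556) and the neutrophil protein gene S100a8 (0.578). Il33 was closest to the keratin Krt80 (0.209) and Il1r1 to Plau (0.119), which encodes urokinase. For Il18bp they were Gm20627 (0.431), Gm16685 (0.512) and the interferon-inducible Parp12 (0.533), for Il1rl1 AW112010 (0.372), and for Il1a Lrrc4 (0.338).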

How the data were processed

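Whole E18.5 intestines and MEFs were profiled by RNA-seq, 3 libraries for each of 12 genotype groups, grouped by GEO's labels. The authors aligned reads to the mouse genome (GRCm38, mm10) with GSNAP, kept unique alignments and deposited counts of reads per gene with gene widths and RPKM; the authors' filters beyond this are not given in the sources used here. Labels and methods name different kits, so whether counting used strand is unknown. Il1a, Il1b, Il18, Il18bp and Il1r2 overlap genes on the opposite strand (Gm14023, Il1bos, Bco2 and Tex12, Numa1, Gm16894), and Il1r1 and Il1r2 overlap Gm38070 and Gm37347 on the same strand, so their counts may include or lose reads of these.

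Counts as deposited were tested with the quasi-likelihood test of edgeR 4.0.16 (R 4.3.3), with TMM scaling and filterByExpr (minimum count 10, total 15), 1 fit for each set: 18360 genes in D387A intestines, 19408 in C362A intestines and 15465 in MEFs. A gene was called at a Benjamini-Hochberg adjusted p under 0.05 over all genes tested and a log2 fold change over 1 in size. Standard errors are the fold change over the square root of F. Differences between effects were interaction contrasts over both sets concerned, called by adjusted p alone and kept for a member that passed the filter in each set, a rule set after the MEF zeros were seen. RPKM printed here was computed from the deposited counts and widths with TMM-scaled library sizes of each set; the deposited RPKM served as an alternative. The upper bound given for 0 reads in MEFs covers counting error only. Replicates differed more than counting noise, 5.34 to 77.2 times in the 36 pairs, so no library was counted as a duplicate.

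All 9 members were described in 14 comparisons, whatever their values. For the other lists, counts and the largest rise and fall are given. The members and lists were chosen with earlier results of these data known. Deviations of same-numbered libraries were weakly correlated in every pair in 2 comparisons, D387A alone (0.111 to 0.22) and MEFs (0.181 to 0.31). Libraries of different numbers were not correlated for reference, so this does not show that the numbers pair libraries. Each result was recomputed with limma-voom (limma 3.58.1) and DESeq2 1.42.0, under different scaling, filters and prior counts, in fits of 2 groups, with pooled Mlkl controls, with a replicate block, and without each library. On simulated counts the test was checked against known changes. Promoter sequences are from RefSeq.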

Additional observations from a re-analysis of the deposited data

Results flagged for a closer look

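Differences between effects passed their own test for 9 results. The response to Casp1 loss differed between the D387A Cflar Mlkl and C362A Mlkl backgrounds for Il1a (difference of log2 fold changes 2.41) and Il1rn (1.80). By share, 2 of 9 is near the 16.9% of all genes that differed. The Il1rn difference missed the threshold without D387A Cflar Mlkl replicate 1 or 2, D387A Cflar Mlkl Casp1 replicate 3, C362A Mlkl replicate 3 or C362A Mlkl Casp1 replicate 3 (edgeR adjusted p 0.0664 to 0.16). The change from Mlkl to D387A Cflar Mlkl differed between intestine and MEFs for Il1rn (4.54), Il1r2 (3.37), Il1rl1 (2.18), Il33 (2.10), Il18bp (2.07), Il1r1 (1.15) and Il18 (-1.05). Of these, Il1r2 missed the threshold without MEF Mlkl replicate 2 (2.32, edgeR adjusted p = 0.105) and Il18 by limma-voom (adjusted p = 0.114). All were interaction contrasts in edgeR at an adjusted p under 0.05. In each background comparison Cflar status differs as well, and in the tissue comparison cell composition does, so these cannot be told apart from the effects named. With 3 libraries a group, no group was tested for a deviating library.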

How the results depend on the processing

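Counts of called members in the comparisons of single genotypes with Mlkl intestines, of Casp1 and Cflar loss and in MEFs stayed within 1.5 times under the alternatives run, apart from those named here. D387A Cflar Mlkl Casp1 against Mlkl intestines gave 5 members, but 2 by limma-voom, 1 in a fit of only the 2 groups and 2 to 5 when 1 library was left out (2 without Mlkl replicate 1 or Casp1 replicate 3). Ifnar1 loss gave 3, but 2 by DESeq2, which lost Il1rn, 6 by limma-voom, 0 in a fit of only the 2 groups, 5 by adjusted p alone and 1 to 6 when 1 library was left out (6 without Casp1 replicate 3, 1 without Casp1 replicate 2 or Ifnar1 replicate 3). Fadd loss gave 2, but 1 by limma-voom, 0 in a fit of only the 2 groups and 1 to 3 when 1 library was left out (1 without Fadd replicate 1). The difference between backgrounds in Casp1 loss gave 2, and 1 to 4 when 1 library was left out (4 without D387A Cflar Mlkl Casp1 replicate 2, 1 without D387A Cflar Mlkl replicate 1 or 2 or the third library of either C362A group). Il18bp on Casp1 loss in the D387A set ranged from -1.23 to 0.45 on the log2 scale when 1 library was left out, and was called lower at -1.23 without Casp1 replicate 3. The cause of these shifts was not tested.

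Among single members, Il18 in D387A Cflar Mlkl intestines came under the fold threshold without D387A Cflar Mlkl replicate 3 (-0.90), without Mlkl replicate 1 (-0.97) and with both Mlkl groups pooled (-0.94), and Il1a was called lower without D387A Cflar Mlkl replicate 3 (-1.24) and with pooled controls (-1.23). On Casp1 loss in the D387A set, Il1rl1 lost its call without D387A Cflar Mlkl replicate 1 or 3 or Casp1 replicate 1 or 2 and in a fit of only the 2 groups (-1.33, adjusted p = 0.161), and Il1r1 without D387A Cflar Mlkl replicate 3 or Casp1 replicate 1 or 2. With a replicate block, Il1a in D387A Cflar Mlkl intestines was called lower (-1.01, edgeR adjusted p = 0.00582) and Il1rl1 was called higher on Ifnar1 loss (1.28, adjusted p = 0.0431), and no other call changed, although Il1rl1 in MEFs passed the adjusted p (0.0126) under the fold threshold. No source used here says that the replicate numbers mark a litter, a batch or a day. Low depth limits Il1b in the D387A set controls, with 6 to 18 reads a library, and in MEFs, with 0.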
